A study of Chlorocebus aethiops with 12 samples.

Results

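Co-expression of MDFIC with the glucocorticoid receptor (GR) was examined in cells that received no hormone. The samples were chosen by their titles: 3 arrays of COS-1 cells transfected with GR and MDFIC and given vehicle, against 3 arrays of COS-1 cells transfected with GR alone and given vehicle, which makes 6 of the 12 arrays in the study. COS-1 is a fibroblast-like cell line from African green monkey kidney. All groups carried transfected GR, were transfected with FuGENE6, and were moved to medium with charcoal-stripped serum the day after transfection. Vehicle was given for 6 h before total RNA was taken. The other 6 arrays came from cells transfected with the same 2 sets of constructs and given 100 nM dexamethasone (Dex) for 6 h. The labels describe 3 biological replicates in each group. They do not give the species or tag of the GR and MDFIC constructs, the share of cells that took them up, or whether cells transfected with GR alone received an empty plasmid in place of MDFIC. In bulk RNA, fewer cells with a transcript and less of it per cell cannot be told apart.

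GR is a nuclear receptor that, without ligand, is held mainly in the cytoplasm in a complex with chaperones, and that moves to the nucleus and regulates transcription once a glucocorticoid binds. MDFIC belongs to the small family of proteins with a cysteine-rich I-mfa domain, which bind transcription factors and parts of the transcription elongation machinery. COS-1 cells express the large T antigen of a simian virus, so that plasmids with the matching origin replicate in them and transfected genes can reach high levels. Serum is stripped with charcoal to remove steroids. The comparison therefore addresses which transcripts differ when MDFIC is present with a receptor that has not been given its hormone.

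Cy3-labelled RNA was read on Agilent arrays of 1 colour, whose accessions are largely those of human transcripts; monkey RNA was read with probes of another species and a low signal can reflect the probe as well as the transcript. A level is here the log2 processed signal after the array's own 75th percentile was taken off, and a difference is GR+MDFIC vehicle minus GR vehicle on that log2 scale. Each difference between groups was read within a probe. The number of arrays limits the precision. The files name transcripts by accession or probe number with no gene symbol, and no table of names was used here. Transcripts are therefore given by accession, and the levels of MDFIC and of the GR gene, lists of GR targets and other pathways, and markers of kidney, fibroblast and other cell types were not read by name. The counts of transcripts below may therefore include the transfected MDFIC itself.

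No slide held both vehicle groups. The 3 GR vehicle arrays lay on slide 1, GR+MDFIC vehicle replicates 1 and 2 lay on slide 2, and replicate 3 lay on slide 3, scanned on a different instrument and read with another release of the Feature Extraction software, per the file headers. The signal at the 75th percentile was 811 to 916 on the GR vehicle arrays, 821 and 758 on the first 2 GR+MDFIC vehicle arrays and 385 on the third. Between 70.3% and 74.9% of the probes were well above background on the 6 arrays. Pearson correlations across probes were 0.9963 to 0.9971 within GR vehicle, 0.9846 to 0.9956 within GR+MDFIC vehicle and 0.9867 to 0.9922 between the groups. The lowest of these was between 2 GR+MDFIC vehicle replicates. The 10 spike-in probes, which carry the same added RNA on every array, differed between the groups by -0.17 to 0.37. Positive values (0.17, 0.37 and 0.18) were found only at the dimmest of them, at -6.52, -6.86 and -5.64 in GR vehicle. Every brighter spike-in probe was lower with MDFIC, with differences of -0.03 to -0.17.

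With MDFIC, 145 transcripts rose (0.654% of 22186 tested) and 85 fell (0.383%), at a Benjamini-Hochberg adjusted p under 0.05 in limma. Together these 230 calls are 1.04% of the transcripts tested. The median difference was 0.73 among the transcripts that rose and -0.38 among those that fell, against a median of 0 and a median size of 0.10 over all tested. Differences of 1 or more (log2) were found for 46 transcripts that rose (0.207% of those tested) and for 7 that fell (0.0316%). Some of these 46 were not well above background on every GR vehicle array, so their fitted size is no measured size. Asking for signal above background on all 6 vehicle arrays gave 31 and 5, of 20617 tested. With normexp background correction and quantile scaling there were 19 and 3. At an unadjusted p under 0.05, 4055 transcripts (18.3%) were counted. The 3 arrays of each group did not overlap for 5074 transcripts (22.9%), of which 2710 were higher (12.2%) and 2364 lower (10.7%) with MDFIC, and all 230 called transcripts were among them. Leaving out GR+MDFIC vehicle replicate 3, which was alone among the vehicle arrays on slide 3, gave 638 calls, 237 higher and 401 lower, so that falls outnumbered rises. Differences of 1 or more then numbered 66 among the higher and 153 among the lower calls, the reverse of the 46 and 7 with all arrays. Leaving out every array of slide 3 gave 132 higher and 142 lower, with 59 and 58 of 1 or more. The balance of rises and falls, in number and in size, therefore changed when GR+MDFIC vehicle replicate 3 or all of slide 3 was left out. Leaving out GR+MDFIC Dex replicate 1, 2 or 3, also on slide 3, kept more rises than falls (117 and 79, 107 and 64, 114 and 52). For GR+MDFIC vehicle replicate 3, the replicate, slide, instrument and software release cannot be told apart. Without GR vehicle replicate 1, 2 or 3 there were 99, 125 and 98 calls.

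**Figure D1:**
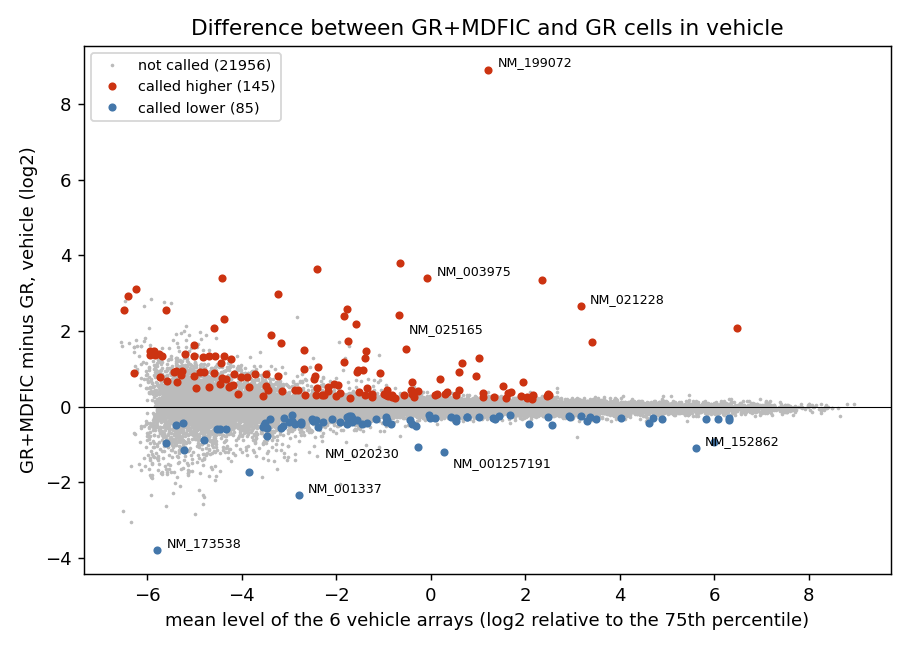
Each point is 1 of the 22186 tested transcripts, with its mean level over the 6 vehicle arrays on the x axis and the difference GR+MDFIC vehicle minus GR vehicle on the y axis, both on the log2 scale. Coloured points are the 145 transcripts that rose and the 85 that fell, and named accessions are labelled; NM_199072 stands alone at 8.91.

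The largest rise was that of NM_199072. Its level was -3.30, -3.18 and -3.22 in GR vehicle replicates 1 to 3 and 5.65, 5.53 and 5.86 in GR+MDFIC vehicle replicates 1 to 3. The replicates of each group lay close together, and every GR+MDFIC array was far above every GR array. Groups that do not overlap were asked for in each RefSeq mRNA named by size, so the lack of overlap adds no support. The mean moved from -3.23 ± 0.06 to 5.68 ± 0.17 (SD, n = 3 each), a difference of 8.91 ± 0.11 (SE), or 481-fold, with an adjusted p of 1.79e-10 in limma. No other transcript among the 230 called came within 5 log2 units of it. Without gene names, whether NM_199072 is the transfected MDFIC itself or a transcript that differs in its presence was not read here.

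NM_003975 was next among RefSeq mRNAs that were well above background on all 6 arrays. Its level was -1.84, -2.09 and -1.37 in GR vehicle and 1.59, 1.70 and 1.60 in GR+MDFIC vehicle. The GR replicates were more spread out than the GR+MDFIC replicates, and the groups were far apart. The difference was 3.40 ± 0.15 (SE), 10.5-fold, with an adjusted p of 3.21e-06 in limma.

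NM_021228 was already well expressed without MDFIC, at 1.99, 1.85 and 1.75, and stood at 4.48, 4.72 and 4.33 with it. All 3 arrays with MDFIC were higher than all 3 without. The difference was 2.65 ± 0.09 (SE), 6.26-fold, with an adjusted p of 8.30e-07 in limma.

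NM_025165 was at -1.97, -1.81 and -1.86 in GR vehicle and at 0.30, 0.34 and 1.01 in GR+MDFIC vehicle. Replicate 3, on slide 3, was the highest of the MDFIC arrays, and replicates 1 and 2 on slide 2 were also above every GR array. The difference was 2.43 ± 0.16 (SE), 5.4-fold, with an adjusted p of 5.37e-05 in limma.

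**Figure D2:**
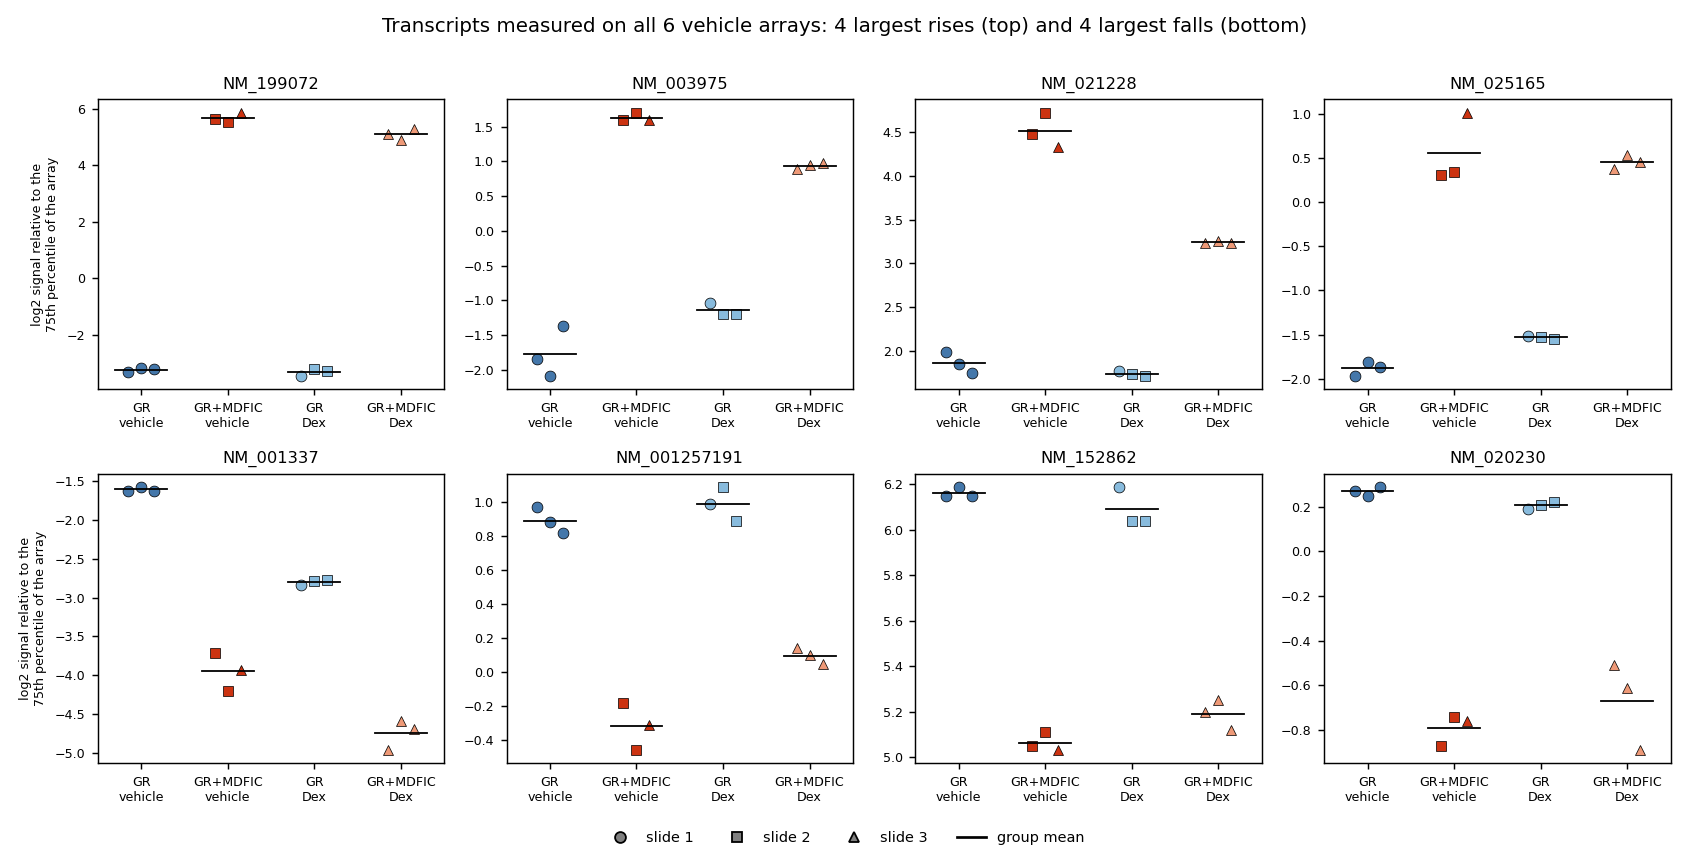
Level (log2, scaled to each array) of 4 rises and 4 falls, the largest among RefSeq mRNAs measured on all 6 vehicle arrays, in each of the 12 arrays, with the 4 groups along the x axis and the y scale set for each transcript; symbols give the slide and bars the group means. In every panel the 3 GR+MDFIC vehicle arrays lie on the same side of the 3 GR vehicle arrays, as the naming rule asked. The differences run from 8.91 for NM_199072 to -1.06 for NM_020230.

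Among RefSeq mRNAs measured on all 6 vehicle arrays, NM_001337 had the largest fall. Its level was -1.62, -1.57 and -1.62 in GR vehicle and -3.72, -4.20 and -3.94 in GR+MDFIC vehicle. The GR arrays were nearly equal and every GR+MDFIC array was lower by over 2 log2 units. The difference was -2.35 ± 0.12 (SE), a 5.10-fold lower signal, with an adjusted p of 1.29e-05 in limma. With normexp background correction and quantile scaling the difference was -1.32.

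The other 3 falls named from these transcripts were between 2.09-fold and 2.31-fold. NM_001257191 was at 0.97, 0.88 and 0.82 in GR vehicle and at -0.18, -0.46 and -0.31 in GR+MDFIC vehicle, a difference of -1.21 ± 0.08 (SE, adjusted p 5.37e-05 in limma). All 3 arrays with MDFIC were lower than all 3 without.

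NM_152862, a bright probe, was at 6.15, 6.19 and 6.15 in GR vehicle and stood at 5.05, 5.11 and 5.03 with MDFIC. The replicates of each group lay within 0.1 of each other, and the groups did not overlap. The difference was -1.10 ± 0.05 (SE), 2.14-fold lower, with an adjusted p of 9.39e-06 in limma.

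NM_020230 was at 0.27, 0.25 and 0.29 in GR vehicle and at -0.87, -0.74 and -0.76 in GR+MDFIC vehicle. The difference was -1.06 ± 0.08 (SE, adjusted p 2.64e-04 in limma). With slide as a block the difference was -1.11 and the call was lost (adjusted p 0.0654).

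Several of the largest differences were seen by 1 probe of the accession and not by the other. For NM_199072 the values above come from probe A_32_P120567. Its other probe, A_23_P327022, was at -1.80, -2.28 and -1.90 in GR vehicle and at -2.13, -2.30 and -2.04 in GR+MDFIC vehicle, a difference of -0.17 (adjusted p 0.614 when each probe was fitted on its own). The groups overlapped at that probe. The distance between the 2 probes, taken within each array, changed by 9.08 ± 0.21 (SE) with MDFIC (adjusted p 4.49e-09 in limma over 6090 probe pairs). The mean of the 2 probes differed by 4.37.

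The second probe of NM_021228, A_24_P117672, was at -1.45, -1.37 and -1.35 in GR vehicle and at -1.28, -1.27 and -1.29 in GR+MDFIC vehicle (difference 0.11, adjusted p 0.261). That of NM_025165, A_24_P47988, was at -1.65, -1.39 and -1.50 against -1.58, -1.53 and -1.50 (difference -0.02, adjusted p 0.951). That of NM_020230, A_23_P16096, was at -1.05, -0.97 and -1.02 against -1.44, -1.40 and -1.0 (difference -0.26, adjusted p 0.287). In each case 1 probe passed the test and the other did not.

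The probe distance of NM_021228 changed by 2.54 ± 0.10 (adjusted p 7.81e-07), that of NM_025165 by 2.46 ± 0.19 (adjusted p 0.000157) and that of NM_020230 by -0.80 ± 0.13 (adjusted p 0.0282), all SE, in limma. With the mean of the probes in place of the brightest one, the differences were 1.38 for NM_021228, 1.20 for NM_025165 and -0.66 for NM_020230, and all 3 stayed called. Each-probe fits and pair tests were added after the data were seen. Such changes were few over the array: 49 of 6090 pairs, from 4829 accessions, passed (0.805%), 14 of them with a change of at least 1. They were more frequent among called accessions, where 6 of 48 pairs passed. Those accessions had been chosen on the difference at their brightest probe, which enters this count. What sets the probes of an accession apart, such as the part of the transcript each one reads, was not tested, since no probe sequence was used here.

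**Figure D3:**
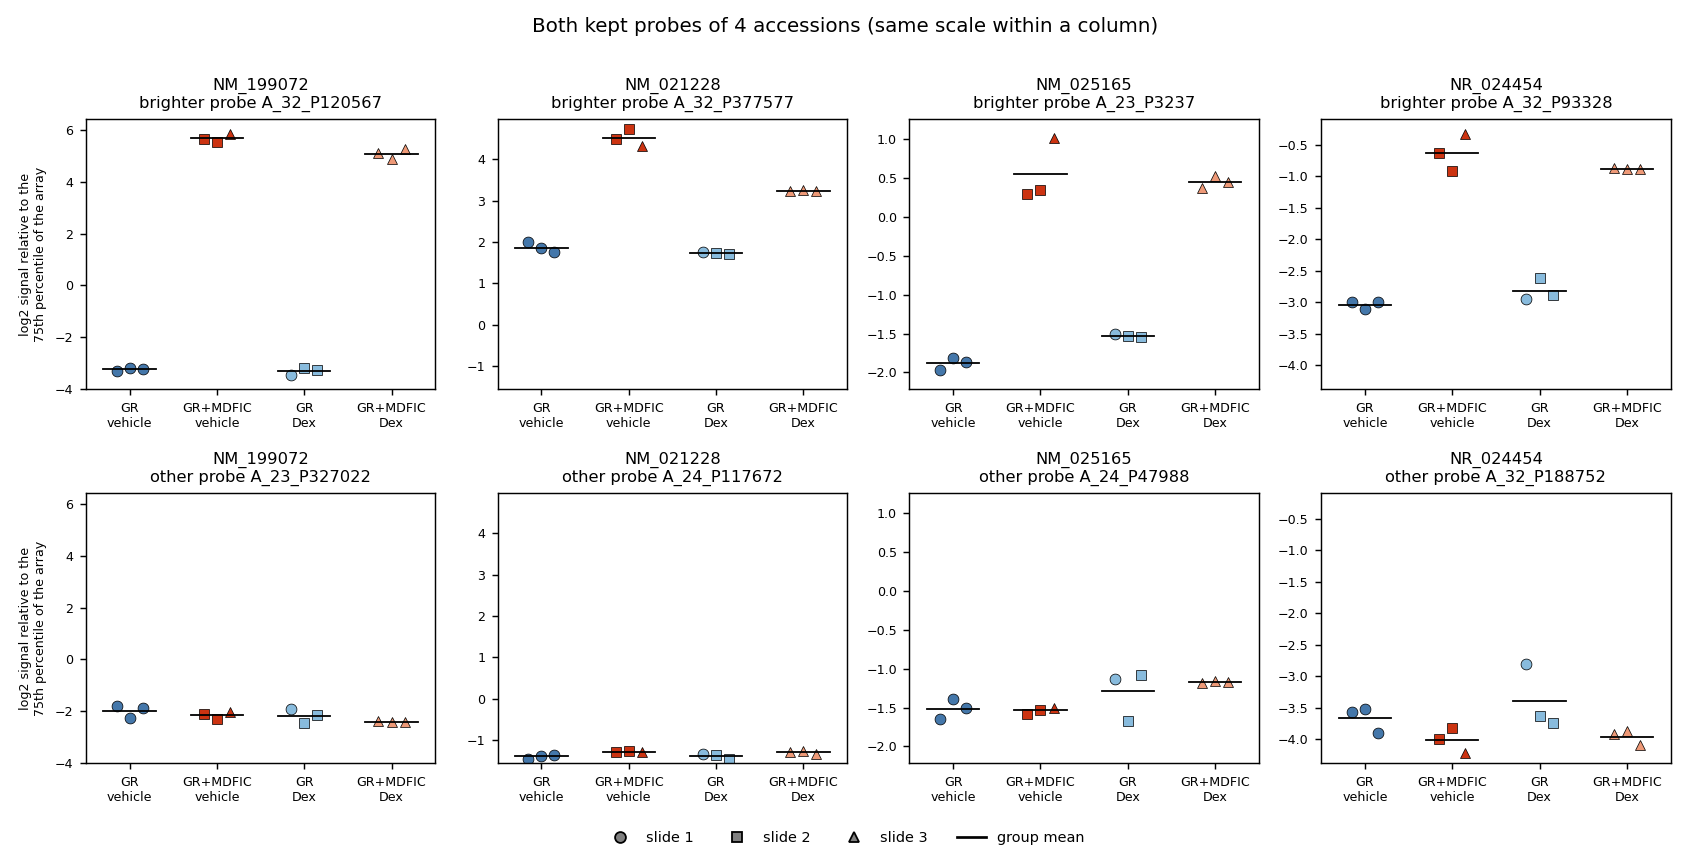
Level (log2, scaled to each array) of the brighter probe (top row) and the other probe (bottom row) of 4 accessions in each of the 12 arrays, on the same y scale within an accession; symbols give the slide and bars the group means. The brighter probe separates the vehicle groups, by 8.91 for NM_199072, while the other probe differs by -0.17 there and by 0.11 for NM_021228.

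Over all calls, further probes mostly moved the same way without passing the test. The 39 called accessions with more than 1 probe past the filter had 48 further probes. Of these, 35 moved in the direction of the brightest one, 2 of the 35 were called, and none was called in the opposite direction. The median size of the difference was 0.16 for the further probes and 0.33 for the brightest probes of those accessions. The share of further probes with the same direction over all accessions was not counted. Fitted singly, 262 of 28276 probes were called (0.927%), 171 higher and 91 lower, and they came from 259 accessions, 43 of which were not called by their brightest probe. NM_001082968 was one of these: its probe A_23_P337155 was at -4.77, -4.97 and -5.32 in GR vehicle and at -2.25, -2.17 and -2.02 in GR+MDFIC vehicle, a rise of 2.87 (adjusted p 2.19e-05 in limma), while its brightest probe differed by 0.10. NM_001495 had 2 dim probes that rose by 2.11 and 1.88 (adjusted p 0.00107 and 0.00029) beside a brightest probe that differed by 0.28. These accessions were chosen after their values were seen.

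A further set of transcripts was measured in 1 group only, with the signal well above background on all 3 arrays of that group and on no array of the other. There a fold is a lower bound, set on each array from the dim probe itself or from the dimmest probe that passed the background test, whichever was higher. Among the 145 rises, 11 had no GR vehicle array above background and 9 had 1 or 2; among the 85 falls, 1 had no GR+MDFIC vehicle array above it and 2 had some. All 6 arrays measured the other 125 rises and 82 falls.

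NM_006944 was at -7.20, -7.24 and -6.20 in GR vehicle, not well above background, and at -4.49, -4.28 and -4.17 with MDFIC, at least 3.31-fold higher (adjusted p 0.00189 in limma). NM_001098398 was at -8.11, -7.14 and -8.13 in GR vehicle and at -4.46, -4.86 and -4.68 with MDFIC, at least 2.59-fold higher (adjusted p 0.0158). Both passed the filter through the MDFIC arrays alone. Every MDFIC array was above every GR array for both, which the rule that named them asked for and which adds no support. Both calls were lost with slide as a block (adjusted p 0.266 and 0.215); NM_001098398 also missed the threshold when GR vehicle replicate 1 (0.0734) or 3 (0.0772) or GR+MDFIC vehicle replicate 1 (0.0509) was left out, and with normexp and quantile scaling (0.0785). NM_006944 missed it with the 6 vehicle arrays alone (0.074).

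NM_198148 was at -6.28, -6.59 and -6.70 in GR vehicle and at -5.09, -5.17 and -5.23 with MDFIC, at least 1.84-fold higher (adjusted p 7.47e-04 in limma; 0.0941 with slide as a block and 0.1 with normexp and quantile scaling, where the call was lost). NM_032562 was at -6.71, -7.04 and -6.44 in GR vehicle and at -5.90, -5.84 and -5.78 with MDFIC, at least 1.15-fold higher (adjusted p 0.0309). The call of NM_032562 was lost in 15 of 25 alternatives, with adjusted p from 0.0263 to 0.555.

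The 1 fall of this kind was NM_173538, at -4.17, -3.66 and -3.85 in GR vehicle and at -7.48, -7.50 and -8.10 with MDFIC. It was measured on all 3 arrays with GR alone and failed the background test on each array with MDFIC. The signal was at least 4.24-fold lower (adjusted p 1.84e-05 in limma), and the call was kept with slide as a block (adjusted p 0.00151).

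**Figure D4:**
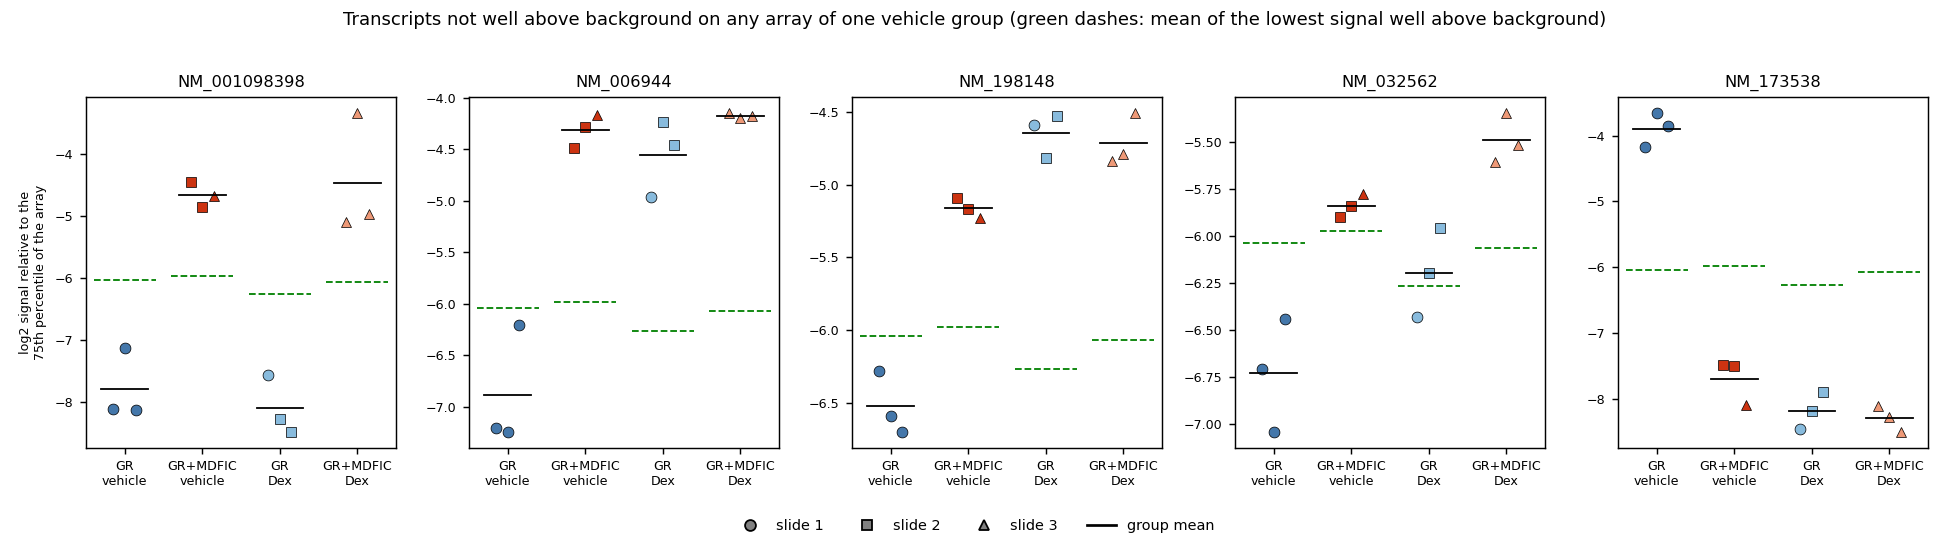
Level (log2, scaled to each array) in each of the 12 arrays of 4 rises and 1 fall among RefSeq mRNAs measured in 1 vehicle group and not in the other; symbols give the slide, black bars the group means and green dashes each group's mean of the dimmest signal that passed the background test. For NM_173538 the 3 GR vehicle arrays lie between -4.17 and -3.66, above the green dashes, and the GR+MDFIC vehicle arrays between -8.10 and -7.48, below them.

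Probes without a RefSeq mRNA accession were among the largest rises, and the following were chosen after their values were seen. THC2689579, an assembled cluster of sequence tags, was at 0.66, 0.72 and 0.67 in GR vehicle and at 4.02, 4.10 and 3.98 with MDFIC. The replicates lay within 0.12 of each other in both groups. The difference was 3.35 ± 0.08 (SE), 10.2-fold, with an adjusted p of 3.42e-08 in limma.

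A_32_P18072, a probe with no accession, was at -1.99, -3.15 and -2.57 in GR vehicle and at 0.91, 1.06 and 1.77 with MDFIC, a rise of 3.81 ± 0.35 (SE, adjusted p 7.28e-04 in limma). The Ensembl transcript ENST00000454608 was at -4.57, -4.02 and -4.09 against -1.38, -0.38 and 0.01, a rise of 3.64 (adjusted p 3.16e-04; 0.0545 when the 6 vehicle arrays were fitted alone, and a difference of 2.28 with normexp and quantile scaling). Replicates of both were spread over more than 0.8 units in each group except GR vehicle of the second, and no group overlapped the other.

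The non-coding RNA accession NR_024454 was at -3.0, -3.10 and -3.0 in GR vehicle and at -0.63, -0.92 and -0.33 with MDFIC, a rise of 2.40 (adjusted p 1.84e-05 in limma). Its other probe was at -3.56, -3.51 and -3.89 against -4.00, -3.82 and -4.21 (difference -0.36, adjusted p 0.435), and the distance between its probes changed by 2.76 ± 0.31 (SE, adjusted p 0.00453); the mean of both probes differed by 1.02. A_32_P223616 rose by 2.99 (adjusted p 2.58e-06; 1.44 with normexp and quantile scaling) and ENST00000484864 by 2.58 (adjusted p 0.00104; 0.0671 with the 6 vehicle arrays alone).

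By kind of accession, 149 of 15488 RefSeq mRNAs were called (0.962%), 89 higher and 60 lower. Of 1018 Ensembl transcripts, 18 were called (1.77%), 12 higher and 6 lower, and of 741 assembled sequence tags 10 were called (1.35%), 8 higher and 2 lower. Probes with no accession gave 25 calls of 2430 (1.03%), and RefSeq non-coding RNAs 6 of 770 (0.779%), of which 4 fell. By mean level, transcripts below -5 gave 22 rises and 5 falls of 1951 tested, and those above 1 gave 22 rises and 24 falls of 6070. The dim transcripts are also those whose GR+MDFIC replicates differed most between slides 2 and 3, by a median of 0.42 below -5 and 0.08 above 1; the part of this in the counts was not tested.

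The same contrast was read in the 6 arrays given Dex, which are other samples. There 1149 transcripts were called (5.18% of 22186), 503 higher (2.27%) and 646 lower (2.91%) with MDFIC. Of the 145 transcripts that rose in vehicle, 136 were also higher with MDFIC in Dex, 70 of them called; of the 85 that fell, 82 were also lower, 43 of them called. Over all transcripts tested, 64.9% had the same direction in both. The median difference of the same transcripts in Dex was 0.33 for the rises and -0.25 for the falls, and it was smaller in Dex than in vehicle for 127 of the 145 and 74 of the 85, which had been chosen on the vehicle difference. All 3 GR+MDFIC Dex arrays lay on slide 3.

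NM_199072 was at -3.46, -3.20 and -3.27 in GR Dex and at 5.11, 4.88 and 5.28 in GR+MDFIC Dex, a difference of 8.40 (adjusted p 3.15e-10 in limma). NM_001337 was at -2.84, -2.79 and -2.78 in GR Dex and at -4.97, -4.59 and -4.70 in GR+MDFIC Dex, a difference of -1.95. NM_003975 differed by 2.08 in Dex, NM_025165 by 1.98, NM_001257191 by -0.89, NM_152862 by -0.90 and NM_020230 by -0.88. All 8 measured transcripts named here kept their direction, and for 7 of them the difference of the 2 effects did not pass the test.

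The eighth was NM_021228, at 1.77, 1.74 and 1.71 in GR Dex and 3.23, 3.26 and 3.23 in GR+MDFIC Dex. Its difference of 1.5 in Dex was smaller than that in vehicle by 1.15 ± 0.13 (SE, adjusted p 0.0236 for the difference of the effects in limma). Over all transcripts, 14 passed the test of that difference (0.0631%), of which 5 were among the 145 rises and 1 among the 85 falls.

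For 92 of the 145 rises (63.4%) all 6 GR+MDFIC arrays lay above all 6 GR arrays, vehicle and Dex together, against 432 of all tested (1.95%). For 50 of the 85 falls (58.8%) all 6 lay below, against 329 of all tested (1.48%). In a second pattern the GR vehicle arrays stood apart from the 9 others: 45 of the rises were of this kind, against 505 of all tested (2.28%) lower in GR vehicle, and 39 of the falls, against 627 (2.83%) higher in it. The GR+MDFIC vehicle arrays stood apart from the 9 others for 73 of the rises, against 642 of all tested (2.89%), and for 26 of the falls, against 536 (2.42%). A transcript may belong to more than 1 of these counts, and the vehicle difference that chose the called transcripts enters each of them.

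Of the RefSeq mRNAs named by size, NM_003975, NM_025165, NM_001337, NM_020230, NM_006944, NM_198148, NM_032562 and NM_173538 were of the second pattern. NM_006944 was at -4.96, -4.23 and -4.46 in GR Dex and at -4.15, -4.20 and -4.18 in GR+MDFIC Dex, so that MDFIC made a difference of 0.38 there (adjusted p 0.44 in limma). NM_173538 was at -8.46, -8.19 and -7.90 in GR Dex and at -8.11, -8.28 and -8.50 in GR+MDFIC Dex. It was well above background on none of these arrays, as in GR+MDFIC vehicle. GR Dex replicate 1 lay on slide 1 with the GR vehicle arrays and was nearer to the other GR Dex arrays than to GR vehicle for both transcripts. This is 1 array, and the part of the slide in the pattern was not tested. By contrast NM_001098398 was at -7.56, -8.28 and -8.48 in GR Dex, not well above background, and at -5.10, -3.35 and -4.97 in GR+MDFIC Dex, as in vehicle.

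**Figure D5:**
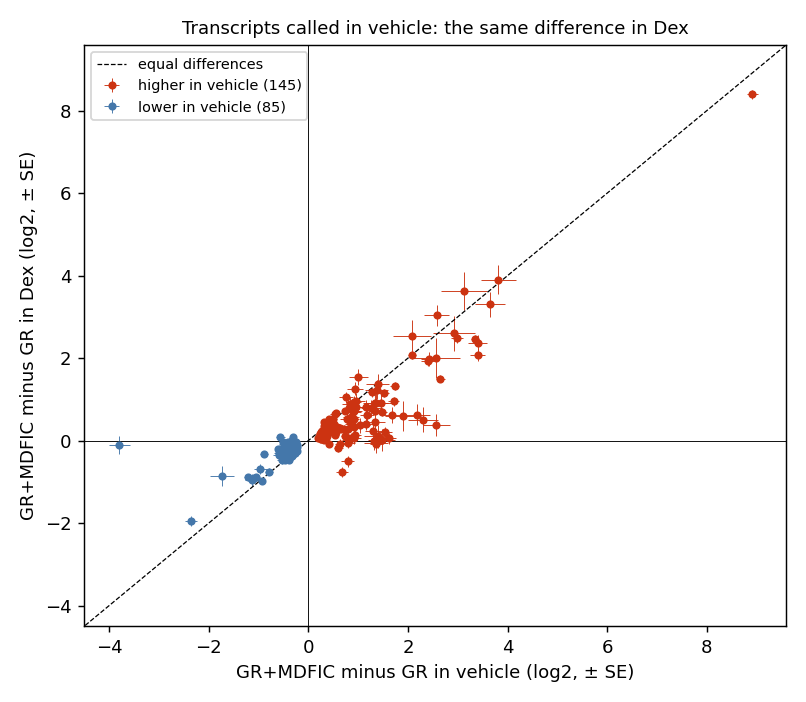
Difference GR+MDFIC minus GR in vehicle (x axis) against the same difference in Dex (y axis), both on the log2 scale, for each of the 230 transcripts called in vehicle; bars are ± SE and the dashed line marks equal differences. Of the 145 rises 136 lie above 0 on the y axis and of the 85 falls 82 lie below it, and 127 and 74 of them are smaller in Dex.

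Since slide and group went together, the differences were also read through arrays that share a slide. With slide as a block, where GR Dex arrays on slides 1 and 2 link the vehicle groups, 68 transcripts were called (0.306% of 22186), 52 higher (0.234%) and 16 lower (0.0721%), and 36 of the 68 were among the 230. All 145 rises and all 85 falls kept their direction, with medians of 0.73 and -0.37, and 29 and 7 of them stayed called. The GR Dex arrays themselves differed between slides 2 and 1 by a median size of 0.10 among the rises and 0.07 among the falls, against 0.09 over all tested. The spread of these arrays enters the variance from which the 230 were called. The difference to GR vehicle had a median of 0.71 for the slide 2 replicates and 0.67 for the slide 3 replicate among the rises, and of -0.38 and -0.36 among the falls.

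On slide 2 alone, GR+MDFIC vehicle replicates 1 and 2 could be set against GR Dex replicates 2 and 3, a comparison in which MDFIC and Dex change together. It had the direction of the vehicle difference for 136 of the 145 rises (median 0.61) and 77 of the 85 falls (median -0.26). It was 8.83 for NM_199072, 2.84 for NM_003975, 2.87 for NM_021228 and 1.86 for NM_025165, and -1.18 for NM_001337, -1.31 for NM_001257191 and -0.96 for NM_152862. It was -1.03 for NM_020230. It went against the vehicle direction for NM_198148 (-0.45), which rose in vehicle, and there was almost no difference for NM_006944 (-0.04), which also rose. For NM_173538, which fell, it was 0.55, but no GR+MDFIC vehicle or GR Dex array was well above background there. That value is no measured size or direction. These values hold slide constant but not hormone, and the part of the slide in the other calls cannot be told apart from that of MDFIC in the vehicle arrays alone.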

How the data were processed

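The authors deposited linear intensities from Agilent arrays of 1 colour, 45015 spots on each of 12 arrays, made from 500 ng of total RNA per the labels. Per the file headers, the authors' Agilent Feature Extraction subtracted background to give a processed signal, and set the other deposited values used, flags of 0 or 1 for spots well above background or outlying. Version 12 is given in the submitters' processing notes, and the headers give another release for slide 3. A table of the whole series that the authors deposited held the same processed signals (largest difference 0).

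Here each array's log2 processed signals were centred on their 75th percentile over non-control spots. Outlier spots were dropped (30 tested values), saturated spots kept, and spots of 264 repeated probes averaged. The filter asked for a signal well above background in all 3 replicates of either vehicle group and 2 or more unflagged replicates per group, which 28276 of 41000 probes passed. The brightest stood for each accession, 22186 of 32379. A group-means model over 12 arrays (8 residual degrees of freedom) was fitted with limma 3.58.1 in R 4.3.3 and tested on simulated data; tests were two-sided with Benjamini-Hochberg adjustment over all transcripts tested, called under 0.05. The simulated data held independent noise and no slide effect, so they cannot show what slide does to the calls. The files were parsed by data.table (version 1.17.8), and matplotlib 3.10.9 in Python 3.11.15 drew the plots. Groups were taken from the labels. The replicate numbers gave no sign of pairing, and the samples were treated as unpaired.

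Members and lists were chosen with earlier results of these data known. The rule named the 4 largest rises and 4 largest falls among called NM accessions with groups that do not overlap, for transcripts measured on all 6 vehicle arrays and, as bounds, for those measured in 1 group only; its gene lists and markers need symbols and were not used here. Alternatives were other scalings, normexp (offset 50, on spot and background medians) with quantile scaling, other filters, the mean of probes, slide or replicate number as a block, the 6 vehicle arrays alone, trend and robust variance, stricter thresholds, and leaving out slide 3 or each array.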

Additional observations from a re-analysis of the deposited data

Results flagged for a closer look

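For 6 of the 230 transcripts called in vehicle, the difference made by MDFIC was itself different in the Dex arrays, by the test of the difference of the 2 effects in limma (values are the effect in Dex minus the effect in vehicle, log2). NM_173538 gave 3.69 (adjusted p 0.00302), but it was well above background in GR vehicle alone, and the fitted size rests on 3 groups that were not and is no measured size. NM_021228 gave -1.15 (adjusted p 0.0236), a rise in both arms that was smaller in Dex, and THC2689579 gave -0.88 (adjusted p 0.0372), also a rise in both, of 3.35 and 2.47.

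ENST00000449362 gave -1.57 (adjusted p 0.0274), with a rise of 1.62 in vehicle and a difference of 0.06 in Dex. NM_198148 gave -1.43 (adjusted p 0.031), with a difference of -0.07 in Dex; no GR vehicle array was well above background, so its rise in vehicle is known only as at least 1.84-fold and the fitted size is no measured size. NM_001143833 gave -1.43 (adjusted p 0.0274), with fitted differences of 0.67 in vehicle and -0.76 in Dex. It was well above background on no GR vehicle array and no GR+MDFIC Dex array, so these are no measured sizes, and with slide as a block its vehicle difference was 0.29 and not called (adjusted p 0.623). All GR+MDFIC Dex arrays lay on slide 3, so slide and the Dex arm of these values cannot be told apart.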

How the results depend on the processing

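The 230 calls (145 higher, 85 lower) became 143 (95, 48) with median scaling, 115 (86, 29) with no filter on dim probes, 68 (52, 16) with slide as a fixed block, 127 (84, 43) with slide as a random block, and 45 (32, 13) with the 6 vehicle arrays fitted alone. A trend and robust variance gave 356 calls, 164 of them lower, and leaving out slide 3 gave 142 lower. An adjusted p under 0.01 left 72 and a difference of at least 1 left 53. Quantile scaling gave 142 higher and 97 lower. The replicate block gave 129 (90, 39), 117 of them among the 230. Deviations of same-numbered samples correlated by -0.11, 0.08 and -0.05, which gave no sign of pairing but cannot exclude it.

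Leaving out 1 array gave 98 to 638 calls, 67 to 237 higher and 26 to 401 lower. The lowest came without GR vehicle replicate 1 (99; 26 lower) or 3 (98; 67 higher), with 125 without replicate 2; without GR+MDFIC vehicle replicate 3 there were 638, 204 of them among the 230. Falls alone numbered 37 and 46 without GR+MDFIC vehicle replicates 1 and 2 and 52 without GR+MDFIC Dex replicate 3. Higher calls were 74.8% of all calls with no filter, 76.5% with the slide block, 53.9% with trend and robust variance and 48.2% without slide 3. None of the 19 accessions and probes followed through the alternatives changed direction; the other accessions named for single probes or for a difference between the arms were not followed. With normexp, differences of transcripts measured in 1 group shrank: 0.45 for NM_001098398, 0.21 for NM_198148 and 0.10 for NM_032562, whose calls were lost, 0.43 for NM_006944 and -0.69 for NM_173538. The cause of these changes was not tested. Signals not well above background limit those transcripts to bounds.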

Other observations

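Outside the brightest probes, A_23_P64121 of NM_012194 was at -7.63, -6.12 and -7.19 in GR vehicle, well above background on 1 of the arrays, and at -3.64, -3.53 and -3.61 with MDFIC, a rise of 3.39 (adjusted p 0.00435 in limma), while the brightest probe of that accession differed by 0.02. In the Dex arrays it was at -6.27, -7.57 and -6.43 with GR alone and at -4.5, -4.16 and -4.00 with MDFIC. A_23_P390445 of NM_001080545 was at -5.39, -5.21 and -5.24 in GR vehicle and at -6.45, -7.62 and -6.66 with MDFIC, not well above background on any of these 3 (adjusted p 0.0353; the fitted size is no measured size), where the brightest probe differed by -0.29. These probes were chosen after their values were seen.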
